A study of Homo sapiens with 12 samples.

Results

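The genes described here are 33 known targets of the transcription factor p53, followed in 2 established human prostate cancer cell lines, LnCaP and 22RV1, with and without nicotine. They were chosen as listed p53 targets that have a probe set naming 1 gene, with the brightest probe set standing for each gene, and 26 of the 33 were measured among 11963 genes in all. BTG2, TP53INP1, RRM2B, SESN2, FDXR and ACER2 are not analysed here, and neither is BBC3, whose only probe set is shared by several gene symbols. LnCaP is p53 wild type, whereas 22RV1 carries a mutant allele.

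The 4 groups were nicotine-treated LnCaP, untreated LnCaP, nicotine-treated 22RV1 and untreated 22RV1, with 3 replicates each. Treated cells had 100 µM nicotine tartrate in the medium for 24 h. The labels name no vehicle for the untreated cells, and nothing says that the replicates were separate cultures, so p-values measure the spread between arrays, which may be technical. Each genotype is represented by 1 cell line, so p53 status and every other difference between the lines cannot be told apart.

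p53 is a transcription factor that is kept scarce by the ubiquitin ligase MDM2 and is stabilised after DNA damage and other stress. It binds pairs of half-sites in DNA and raises the transcription of genes that stop the cell cycle, start apoptosis, repair DNA or adjust metabolism. Several of its targets, MDM2 among them, act back on p53 and limit it. Through the cell cycle inhibitor p21 and the DREAM repressor complex, p53 also lowers many cell division genes. In prostate epithelium, loss or mutation of p53 is mostly known from advanced tumors.

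RefSeq promoter windows (GRCh38.p14, from 250 bases before to 50 bases after a transcript start) were found for 23 of the 26 measured genes, in 35 windows. A match to the p53 half-site consensus, searched on both strands, lay in the windows of 5 of these genes. The 5 stretches are shown because they match the half-site consensus of p53, and they differ in whether the second half-site is complete. Binding of p53 to them was not measured. Capitals mark the half-site matches, and each stretch is 30 bases on the strand of the gene.
PLK2, chr5:58460199-58460228, minus strand: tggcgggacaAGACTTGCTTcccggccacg
FAS, chr10:88991299-88991328, plus strand: cggaactcctGGACAAGCCCtgacaagcca
AEN, chr15:88621296-88621325, plus strand: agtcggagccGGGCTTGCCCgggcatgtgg
SESN1, chr6:109009018-109009047, minus strand: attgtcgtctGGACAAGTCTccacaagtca
DDB2, chr11:47214975-47215004, plus strand: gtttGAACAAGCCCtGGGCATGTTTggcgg

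DDB2, which encodes a sensor of ultraviolet damage, was the only one with 2 complete half-sites, 1 base apart, beginning at base 6 of the transcript. Such a pair, at 0 to 13 bases apart, occurred in 10 of 35116 windows, or 0.0285%. In FAS and AEN the bases that touch the half-site matched the consensus at 8 of 10 positions, in SESN1 at 7 and in PLK2 at 5. A half-site that touches a stretch matching at 8 or more positions was found in 0.356% of all windows. At least 1 half-site was found in 6.63% of all windows and in 14.3% of the 35 windows of these genes. These matches describe letters only. In some targets p53 is known to bind outside such a window, for example far upstream of CDKN1A and in the first intron of MDM2, so nothing is read from the windows without a match.

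GDF15 and CDKN1A carry no half-site match in this window, and their promoters are shown because GDF15 had the widest difference between the lines and CDKN1A encodes p21. In GDF15, capitals mark the TATA box letters TATAAA, whose first base lies 29 bases before the start. Searched on the strand of the gene alone, TATAAA occurred in 7.33% of all windows and in no other of the 23 genes. In CDKN1A, capitals mark the GC box letters GGGCGG, present 4 times with some overlap. Searched on both strands, GGGCGG occurred in 22 of the 23 genes, against 48.3% of all 27305 genes with a window.
GDF15, chr19:18385908-18386157, plus strand: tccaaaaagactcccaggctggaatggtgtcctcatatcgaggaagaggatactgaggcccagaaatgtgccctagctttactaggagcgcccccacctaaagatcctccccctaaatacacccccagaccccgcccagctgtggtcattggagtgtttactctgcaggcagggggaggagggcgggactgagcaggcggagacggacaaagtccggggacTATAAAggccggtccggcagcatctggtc
CDKN1A, chr6:36678464-36678713, plus strand: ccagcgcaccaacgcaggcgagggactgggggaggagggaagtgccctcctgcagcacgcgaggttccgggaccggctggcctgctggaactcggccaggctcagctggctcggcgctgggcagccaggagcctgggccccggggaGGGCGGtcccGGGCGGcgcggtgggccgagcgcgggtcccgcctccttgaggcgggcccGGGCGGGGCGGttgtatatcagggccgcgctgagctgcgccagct

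The arrays gave log2 expression values, in which a step of 1 is a doubling, with array medians between 6.61 and 6.71. Arrays of a group correlated at 0.992 or more and arrays of different lines at 0.933 or less. The 4 arrays numbered 3 held 48% of the residual sum of squares over all genes. All 8 measured markers of prostate luminal epithelium lay between 7.74 and 13.14, and the basal keratins KRT5 and KRT14 between 3.60 and 4.95, near the lower quartile of an array (4.73 to 4.82). The leukocyte markers lay between 4.09 and 5.55, the fibroblast and muscle markers between 4.30 and 10.06, and the endothelial markers between 3.65 and 8.16. Of the 4 fibroblast and muscle markers, ACTA2 (2.06) and COL3A1 (1.22) were higher and DCN (-0.43) was lower in untreated LnCaP than in untreated 22RV1, and COL1A1 (-0.04) did not pass. Of the 3 endothelial markers, VWF was higher (3.23), and PECAM1 (0.05) and CDH5 (0.12) did not pass. Of the basal keratins, KRT14 was higher (0.42) and KRT5 (0.06) did not pass, and no leukocyte marker passed. The luminal markers differed too: KLK3 averaged 13.05 in untreated LnCaP and 8.965 in untreated 22RV1, KLK2 10.49 and 9.41, and TMPRSS2 10.57 and 9.34. CDH1 (11.78 and 11.39), HOXB13 (11.47 and 11.19) and EPCAM (10.105 and 10.065) lay closer together. KRT8 (10.40 and 10.66) and KRT18 (12.58 and 12.71) averaged lower in untreated LnCaP. The part of these markers in the differences between the lines was not tested. Levels of different probe sets are not comparable, so genes are compared only with themselves across groups.

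Untreated LnCaP and untreated 22RV1 were compared first, to set the p53 wild-type line against the line with a mutant allele. A gene is called here when its adjusted p (limma, Benjamini-Hochberg over all 11963 genes) is under 0.05. Of the 26 targets, 15 were higher and 3 lower in LnCaP, and 8 did not pass. The lines differed in much else: 47.8% of all genes were called, 25.4% higher and 22.4% lower in LnCaP, whereas the share of the targets was 69.2%, with 57.7% higher and 11.5% lower. The median log2 difference was 0.42 over the 26 targets and 0.05 over all genes. The arrays of the groups did not overlap for 18 of the 26 targets and for 55.6% of all genes.

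**Figure D1:**
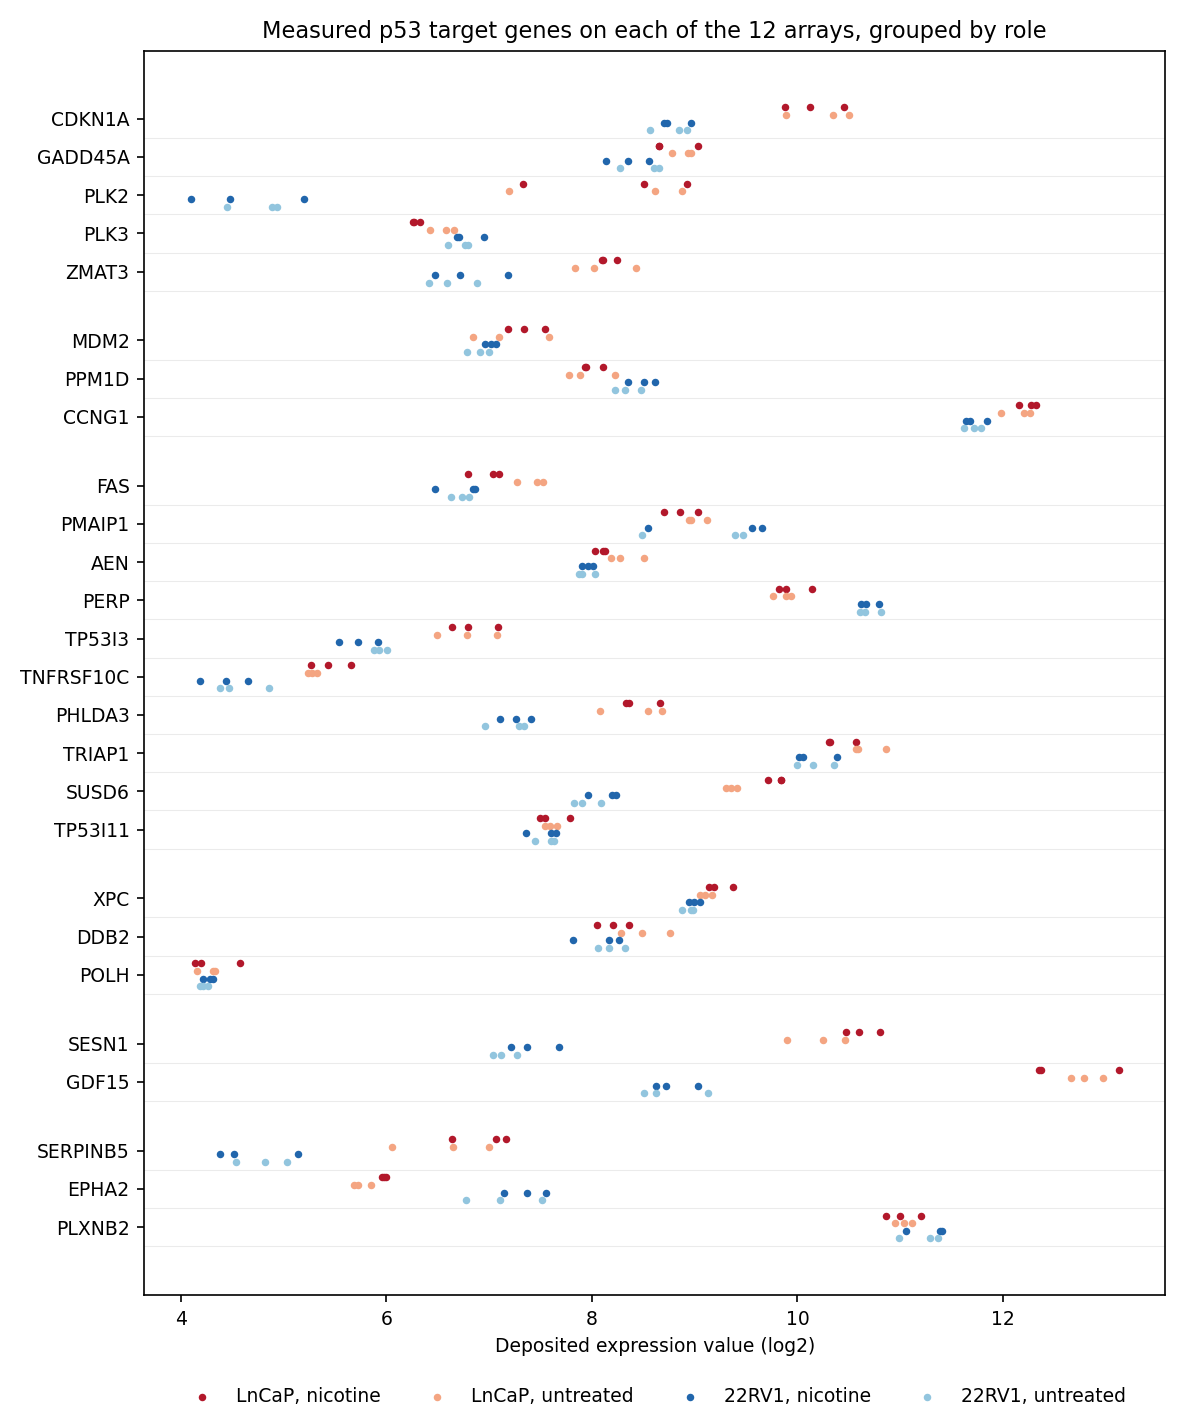
Deposited log2 values (x axis) of the 26 measured p53 targets (rows, grouped by role from cell cycle arrest at the top to adhesion at the bottom), each point 1 of the 12 arrays, with LnCaP in reds and 22RV1 in blues. For GDF15, SESN1 and PLK2 the 6 LnCaP arrays lie to the right of the 6 22RV1 arrays, for EPHA2 and PERP to the left, and for MDM2 and PMAIP1 the lines overlap.

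Among the cell cycle and growth control genes, 4 of 5 were higher in LnCaP. CDKN1A, which encodes the cyclin-dependent kinase inhibitor p21, read 9.89, 10.34 and 10.50 on the untreated LnCaP arrays, against 8.92, 8.85 and 8.56 on the untreated 22RV1 arrays. Every LnCaP array was above every 22RV1 array, with a log2 difference of 1.47 ± 0.18 (SE, n = 3 per group), a 2.76-fold higher level (limma adjusted p = 2.13e-05). PLK2, a polo-like kinase of the stress response, read 8.87, 8.61 and 7.19 in untreated LnCaP, against 4.89, 4.45 and 4.94 in untreated 22RV1. The difference was 3.47 ± 0.47, or 11.1-fold (limma adjusted p = 5.59e-05). Replicate 3 was the lowest LnCaP array, and the 22RV1 values lay near the lower quartile of an array.

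ZMAT3, an RNA-binding regulator of splicing, read 7.84, 8.43 and 8.02 in untreated LnCaP, against 6.42, 6.59 and 6.88 in untreated 22RV1. The groups did not overlap, and the difference was 1.47 ± 0.19 (limma adjusted p = 4.04e-05). GADD45A, a growth arrest and DNA damage gene, differed by only 0.39 ± 0.14 (limma adjusted p = 0.0373). PLK3, another polo-like kinase, was the gene of this role that did not pass, with a difference of -0.17 (limma adjusted p = 0.164). Its dimmer probe set had a difference of the other sign, 0.29, that passed (limma adjusted p = 0.0251 over all probe sets).

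The 3 genes that act back on p53 did not move one way. MDM2 read 7.10, 6.84 and 7.58 in untreated LnCaP, against 6.78, 6.996 and 6.91 in untreated 22RV1. The arrays overlapped, and the difference of 0.28 did not pass (95% interval -0.07 to 0.62, limma adjusted p = 0.179). Without untreated LnCaP replicate 2, the lowest of the 3, it was 0.44 (limma adjusted p = 0.0294). The 4 dimmer MDM2 probe sets gave differences between 0.05 and 0.23, and the one at 0.23 passed (limma adjusted p = 0.0296 over all probe sets).

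PPM1D, which encodes the phosphatase WIP1 that removes activating phosphates from p53 and its kinases, read 7.78, 7.88 and 8.22 in untreated LnCaP, against 8.22, 8.48 and 8.32 in untreated 22RV1. It was lower by 0.38 ± 0.12 on the log2 scale in LnCaP (limma adjusted p = 0.0204), with replicate 3 of LnCaP reaching the lowest 22RV1 array. The call was lost without untreated 22RV1 replicate 2 (limma adjusted p = 0.0854), without untreated LnCaP replicate 1 (limma adjusted p = 0.0904) and without untreated LnCaP replicate 2 (limma adjusted p = 0.0692). CCNG1, which encodes cyclin G1, a partner of phosphatase 2A in activating MDM2, was higher by 0.44 ± 0.10 in LnCaP (limma adjusted p = 0.00202).

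Of the 10 measured apoptosis and death receptor genes, 7 were higher and 1 was lower in LnCaP. SUSD6, a transmembrane protein described as a p53-induced growth inhibitor, read 9.36, 9.41 and 9.31 in untreated LnCaP, against 7.90, 8.09 and 7.83 in untreated 22RV1. The arrays within each line lay close together, and the difference was 1.42 ± 0.10, or 2.67-fold (limma adjusted p = 1.52e-07). PHLDA3, an inhibitor of the survival kinase AKT, read 8.08, 8.54 and 8.69 in untreated LnCaP, against 6.96, 7.34 and 7.29 in untreated 22RV1. Its difference was 1.24 ± 0.16, without overlap (limma adjusted p = 4.35e-05).

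FAS, the death receptor of the FAS ligand, read 7.27, 7.52 and 7.47 in untreated LnCaP, against 6.63, 6.73 and 6.80 in untreated 22RV1. Every LnCaP array was higher, by 0.70 ± 0.12 on average (limma adjusted p = 0.000421). Of its other 3 probe sets, 2 gave differences of 0.84 and 0.81, and the third gave 0.05. TP53I3, a quinone oxidoreductase, was higher by 0.85 and TNFRSF10C, a decoy receptor of the ligand TRAIL, by 0.71, although TNFRSF10C lay near the lower quartile of an array in 22RV1. TRIAP1, which restrains caspase activation in mitochondria, was higher by 0.50 and the nuclease gene AEN by 0.39.

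PERP, a desmosome protein that takes part in p53-dependent apoptosis, was the exception among the called genes of this role. It read 9.76, 9.89 and 9.94 in untreated LnCaP, against 10.82, 10.66 and 10.61 in untreated 22RV1. LnCaP was lower on every array, with a difference of -0.83 ± 0.10 (limma adjusted p = 2.28e-05). PMAIP1, which encodes the BH3-only protein NOXA, read 8.94, 8.96 and 9.13 in untreated LnCaP, against 9.39, 9.47 and 8.49 in untreated 22RV1. Its difference of -0.11 did not pass (95% interval -0.74 to 0.52, limma adjusted p = 0.794), and 22RV1 replicate 3 alone lay below the LnCaP arrays. Without the arrays numbered 3, PMAIP1 was lower in LnCaP by 0.48 (difference -0.48, limma adjusted p = 0.00219). TP53I11 differed by 0.04 and did not pass.

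No DNA repair gene passed without a block, and with a replicate block DDB2 did (limma adjusted p = 0.0171). DDB2 differed by 0.33 (95% interval 0.01 to 0.64, limma adjusted p = 0.0835), XPC, which recognises lesions in nucleotide excision repair, by 0.16, and the translesion polymerase gene POLH by 0.05. POLH lay between 4.13 and 4.57 on all 12 arrays and in every group averaged below the lower quartile of an array.

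Both measured genes of stress, metabolism and secretion had wide differences. GDF15, a secreted stress cytokine of the TGF-beta family, read 12.79, 12.67 and 12.98 in untreated LnCaP, against 8.63, 9.13 and 8.51 in untreated 22RV1. LnCaP was higher on every array by more than 3 log2 units, and the difference was 4.06 ± 0.21, or 16.6-fold (limma adjusted p = 1.78e-08). A second, dim probe set of GDF15 gave 0.70. SESN1, which encodes sestrin 1, an inhibitor of mTORC1 signalling, read 9.90, 10.46 and 10.25 in untreated LnCaP, against 7.04, 7.12 and 7.27 in untreated 22RV1. The difference was 3.06 ± 0.15, or 8.34-fold (limma adjusted p = 1.15e-08).

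The 3 adhesion and guidance genes split. SERPINB5, which encodes maspin, read 6.06, 6.65 and 7.002 in untreated LnCaP, against 5.03, 4.54 and 4.82 in untreated 22RV1. The difference was 1.78 ± 0.25 (limma adjusted p = 8.61e-05), with the 22RV1 values near the lower quartile of an array. EPHA2, an ephrin receptor tyrosine kinase, read 5.69, 5.72 and 5.85 in untreated LnCaP, against 7.11, 7.52 and 6.77 in untreated 22RV1. It was lower in LnCaP by 1.38 on the log2 scale (difference -1.38 ± 0.16, limma adjusted p = 1.49e-05). PLXNB2, a semaphorin receptor, differed by -0.18 and did not pass (limma adjusted p = 0.285).

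The same contrast was made on the other 6 arrays, between nicotine-treated LnCaP and nicotine-treated 22RV1. These arrays were not part of the untreated comparison, though both draw on 1 estimate of the spread per gene. Deviations of same-numbered treated and untreated arrays of a line were also correlated (0.225 to 0.640), so the comparisons are not independent. Here 13 targets were higher and 4 lower in LnCaP, while 49.9% of all genes were called, 26.2% higher and 23.7% lower. The median log2 difference was 0.30 over the targets and 0.06 over all genes, and groups did not overlap for 19 targets and for 58.9% of all genes. With the brightest probe sets, all 26 targets had the same sign as in the untreated comparison, against 85.5% of all genes. A dimmer probe set of each of FAS, MDM2, PLK3, PMAIP1 and TP53I11 changed sign between the comparisons, and the other dimmer ones did not. In both comparisons 15 targets were called, 12 higher and 3 lower, which is 57.7% of the 26 targets, against 41.9% of all genes.

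GDF15 read 12.35, 12.38 and 13.13 in nicotine-treated LnCaP, against 8.62, 9.04 and 8.72 in nicotine-treated 22RV1, a difference of 3.82 (limma adjusted p = 2.72e-08). SESN1 read 10.48, 10.80 and 10.60 in nicotine-treated LnCaP, against 7.37, 7.22 and 7.68 in nicotine-treated 22RV1, a difference of 3.20 (limma adjusted p = 6.68e-09). PLK2 differed by 3.66, SERPINB5 by 2.28, SUSD6 by 1.67, CDKN1A and ZMAT3 by 1.35, PHLDA3 by 1.19, EPHA2 by -1.38 and PERP by -0.74. These genes thus stood on the same side of the lines with and without nicotine. TP53I3 (1.11), TNFRSF10C (1.02), CCNG1 (0.53) and GADD45A (0.43) were also higher again, and PPM1D was lower again (-0.49).

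MDM2 differed by 0.34 in the nicotine-treated cells and did not pass (limma adjusted p = 0.0924), although it passed in a fit of only these groups (limma adjusted p = 0.0299). It also passed without untreated LnCaP replicate 2 (limma adjusted p = 0.0491) or replicate 3 (limma adjusted p = 0.0209), which leaves its difference as it was and changes the spread.

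FAS, AEN and TRIAP1 were called in the untreated comparison alone, and in the nicotine-treated cells they differed by 0.25, 0.13 and 0.25. The 3 other FAS probe sets disagreed there, with 0.53 (adjusted p = 0.00292 over all probe sets, limma), 0.38 (adjusted p = 0.0131) and -0.34 (adjusted p = 0.056). The FAS probe set used passed there with the array medians made equal (0.31, limma adjusted p = 0.0496) and without nicotine-treated LnCaP replicate 1 (0.34, limma adjusted p = 0.0463). PLK3 (-0.50) and XPC (0.24) were called in the nicotine-treated comparison alone. The dimmer PLK3 probe set differed by -0.05 there and did not pass (limma adjusted p = 0.718 over all probe sets). That a gene passed in one comparison and not in the other is not a test of the change between them, which is the difference of the nicotine effects given further on. PMAIP1 differed by -0.39 in the nicotine-treated cells and did not pass (limma adjusted p = 0.291), with replicate 3 of 22RV1 again the lowest, at 8.55 against 9.66 and 9.56. Without that array the difference was -0.74 (limma adjusted p = 0.0211), with array weights -0.65 (limma adjusted p = 0.0223) and without the arrays numbered 3 it was -0.83 (limma adjusted p = 8.16e-05).

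**Figure D2:**
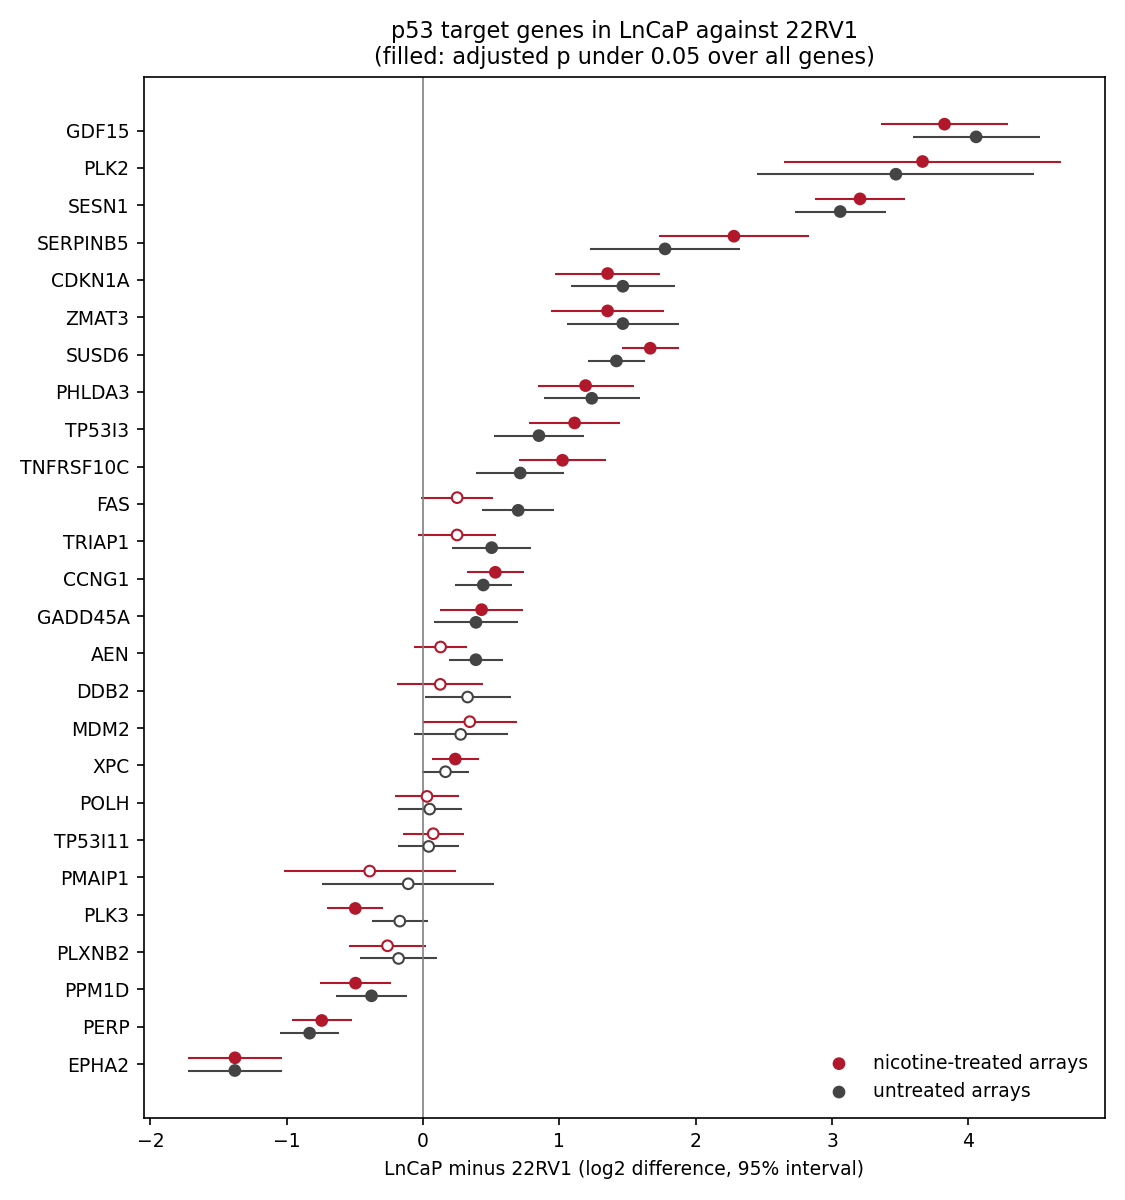
Log2 difference, LnCaP minus 22RV1 (x axis), of the 26 p53 targets (rows, ordered by the untreated difference), from nicotine-treated arrays (red) and untreated arrays (grey), with 95% intervals, 3 arrays per group. Filled points passed an adjusted p of 0.05 over all genes, 17 in the nicotine-treated and 18 in the untreated comparison, and all 26 genes lie on the same side of 0 in both.

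Nicotine-treated LnCaP was then compared with untreated LnCaP, which is the comparison the study's design names. None of the 26 targets passed, against 0.694% of all genes (limma, 83 of 11963). At an unadjusted p under 0.05 there were 5 targets (SUSD6, SESN1, FAS, PLK3 and AEN) and 12.2% of all genes. The median log2 difference was 0.03 over the targets and 0.00 over all genes, and groups did not overlap for 6 targets and for 17.2% of all genes. The best known p53 targets were among those that did not pass.

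CDKN1A read 9.88, 10.13 and 10.46 in nicotine-treated LnCaP, against 9.89, 10.34 and 10.50 in untreated LnCaP. The groups overlapped, and the difference was -0.09 (95% interval -0.47 to 0.29). MDM2 read 7.18, 7.34 and 7.55 in nicotine-treated LnCaP, against 7.10, 6.84 and 7.58 in untreated LnCaP, a difference of 0.18 (95% interval -0.16 to 0.53). In both genes the groups overlapped.

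GDF15 read 12.35, 12.38 and 13.13 in nicotine-treated LnCaP, against 12.79, 12.67 and 12.98 in untreated LnCaP, a difference of -0.19 (95% interval -0.66 to 0.27). Treated replicate 3 was the highest of the 6 arrays. PMAIP1 read 8.86, 8.70 and 9.03 in nicotine-treated LnCaP, against 8.94, 8.96 and 9.13 in untreated LnCaP, a difference of -0.15 (95% interval -0.78 to 0.49). The intervals of CDKN1A, MDM2, GDF15 and PMAIP1 all hold 0.

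Same-numbered treated and untreated arrays of a line were taken as pairs, which the data bear out less clearly for numbers 1 and 2 than for number 3. The fit was also run with the pair as a block, and 3 targets then passed in LnCaP, against 5.39% of all genes. Of these, 2 were higher and 1 lower, against 2.11% and 3.28% of all genes. SUSD6 read 9.71, 9.85 and 9.84 in nicotine-treated LnCaP, against 9.36, 9.41 and 9.31 in untreated LnCaP. It was higher in all 3 pairs, by 0.35, 0.43 and 0.53, with a mean of 0.44 ± 0.10 (SE without the block, 0.08 with it). The limma adjusted p was 0.0637 without the block and 0.0179 with it. SESN1, with 10.48, 10.80 and 10.60 in nicotine-treated LnCaP against 9.90, 10.46 and 10.25 in untreated LnCaP, was higher in all 3 pairs, by 0.57, 0.34 and 0.35. Its mean was 0.42 ± 0.15 (SE without the block, 0.08 with it), and its limma adjusted p was 0.255 without the block and 0.0237 with it.

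FAS read 6.79, 7.04 and 7.10 in nicotine-treated LnCaP, against 7.27, 7.52 and 7.47 in untreated LnCaP, so no treated array reached an untreated one. The pairs differed by -0.48, -0.48 and -0.37, with a mean of -0.44 ± 0.12 (SE without the block, 0.08 with it). The limma adjusted p was 0.121 without the block and 0.0142 with it. The other 3 FAS probe sets gave -0.41, -0.38 and -0.46 in the same contrast. None of the 3 calls held when 1 replicate number was left out of the block fit, a setting chosen after seeing the data. The limma adjusted p was then 0.0731 to 0.109 for FAS, 0.08 to 0.131 for SUSD6 and 0.0881 to 0.207 for SESN1.

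PLK3 read 6.33, 6.26 and 6.26 in nicotine-treated LnCaP, against 6.65, 6.42 and 6.58 in untreated LnCaP, a difference of -0.27 (limma adjusted p = 0.242, and 0.0805 with the block). Of the 26 targets, 7 were higher and 7 lower in all 3 LnCaP pairs, and 40.8% of all genes went one way in all 3. The ones higher in each pair were SUSD6, SESN1, SERPINB5, EPHA2, CCNG1, XPC and TP53I3, and the ones lower in each pair were FAS, PLK3, AEN, TRIAP1, DDB2, PMAIP1 and CDKN1A. By role, the apoptosis and death receptor genes thus held both the largest positive and the largest negative difference, and their median was 0.01.

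**Figure D3:**
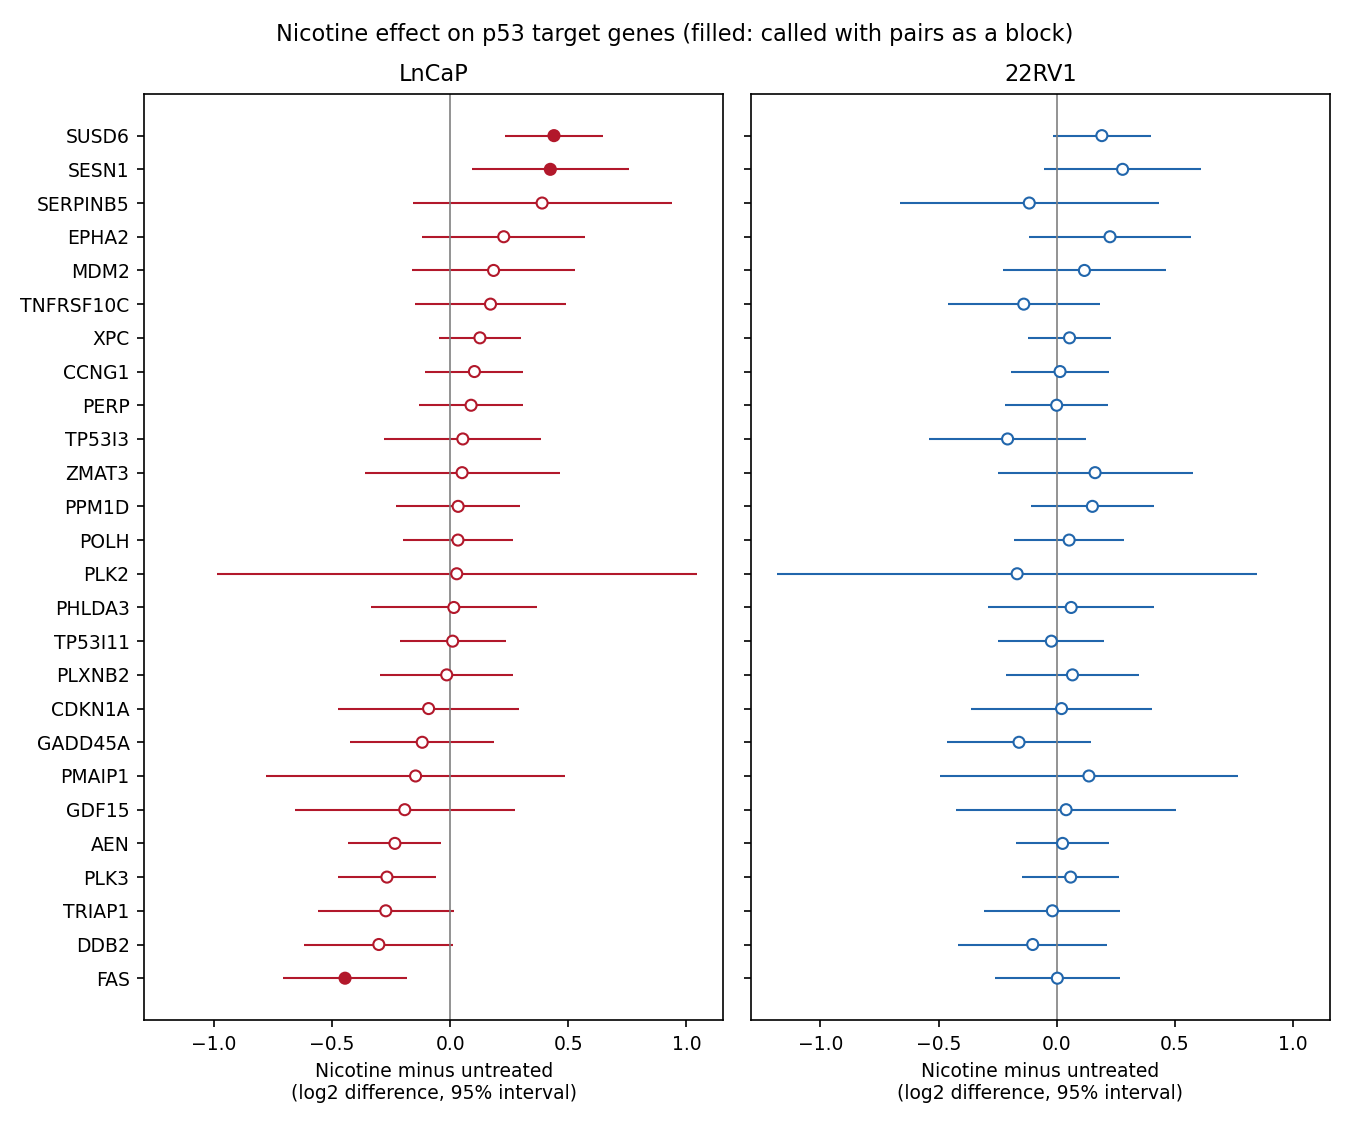
Log2 difference, nicotine minus untreated (x axis), of the 26 p53 targets (rows, ordered by the LnCaP difference) in LnCaP (left) and 22RV1 (right), with 95% intervals of the fit without a block, 3 arrays per group. Filled points passed with the pairs as a block: SUSD6, SESN1 and FAS in LnCaP, with no point in 22RV1.

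In 22RV1, none of the 26 targets and none of all genes passed (0% of 11963, limma), and with the pairs as a block there were again 0 of both. At an unadjusted p under 0.05 there were 0 targets, against 5.29% of all genes. Every target's treated and untreated arrays overlapped, whereas 11.9% of all genes had groups that did not. The 4 targets with the smallest p were SUSD6 (0.19), SESN1 (0.28), EPHA2 (0.23) and TP53I3 (-0.21), given as log2 differences that did not pass.

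SUSD6 read 7.96, 8.24 and 8.20 in nicotine-treated 22RV1, against 7.90, 8.09 and 7.83 in untreated 22RV1. SESN1 read 7.37, 7.22 and 7.68 in nicotine-treated 22RV1, against 7.04, 7.12 and 7.27 in untreated 22RV1. Both were higher in each of the 3 pairs, but their groups overlapped. EPHA2 read 7.37, 7.56 and 7.15 in nicotine-treated 22RV1, against 7.11, 7.52 and 6.77 in untreated 22RV1, and TP53I3 read 5.73, 5.54 and 5.92 in nicotine-treated 22RV1, against 5.88, 6.002 and 5.93 in untreated 22RV1.

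CDKN1A read 8.73, 8.96 and 8.70 in nicotine-treated 22RV1, against 8.92, 8.85 and 8.56 in untreated 22RV1, a difference of 0.02 (95% interval -0.36 to 0.40). MDM2 read 7.07, 6.96 and 7.02 in nicotine-treated 22RV1, against 6.78, 6.996 and 6.91 in untreated 22RV1, a difference of 0.12 (95% interval -0.23 to 0.46). FAS read 6.48, 6.86 and 6.84 in nicotine-treated 22RV1, against 6.63, 6.73 and 6.80 in untreated 22RV1, a difference of 0.00 (95% interval -0.26 to 0.27). In each of these genes the treated and untreated arrays overlapped. GDF15 read 8.62, 9.04 and 8.72 in nicotine-treated 22RV1, against 8.63, 9.13 and 8.51 in untreated 22RV1, a difference of 0.04 (95% interval -0.43 to 0.51). PMAIP1 read 9.66, 9.56 and 8.55 in nicotine-treated 22RV1, against 9.39, 9.47 and 8.49 in untreated 22RV1, a difference of 0.14 (95% interval -0.50 to 0.77). Its replicate 3 was the lowest array of both groups.

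**Figure D4:**
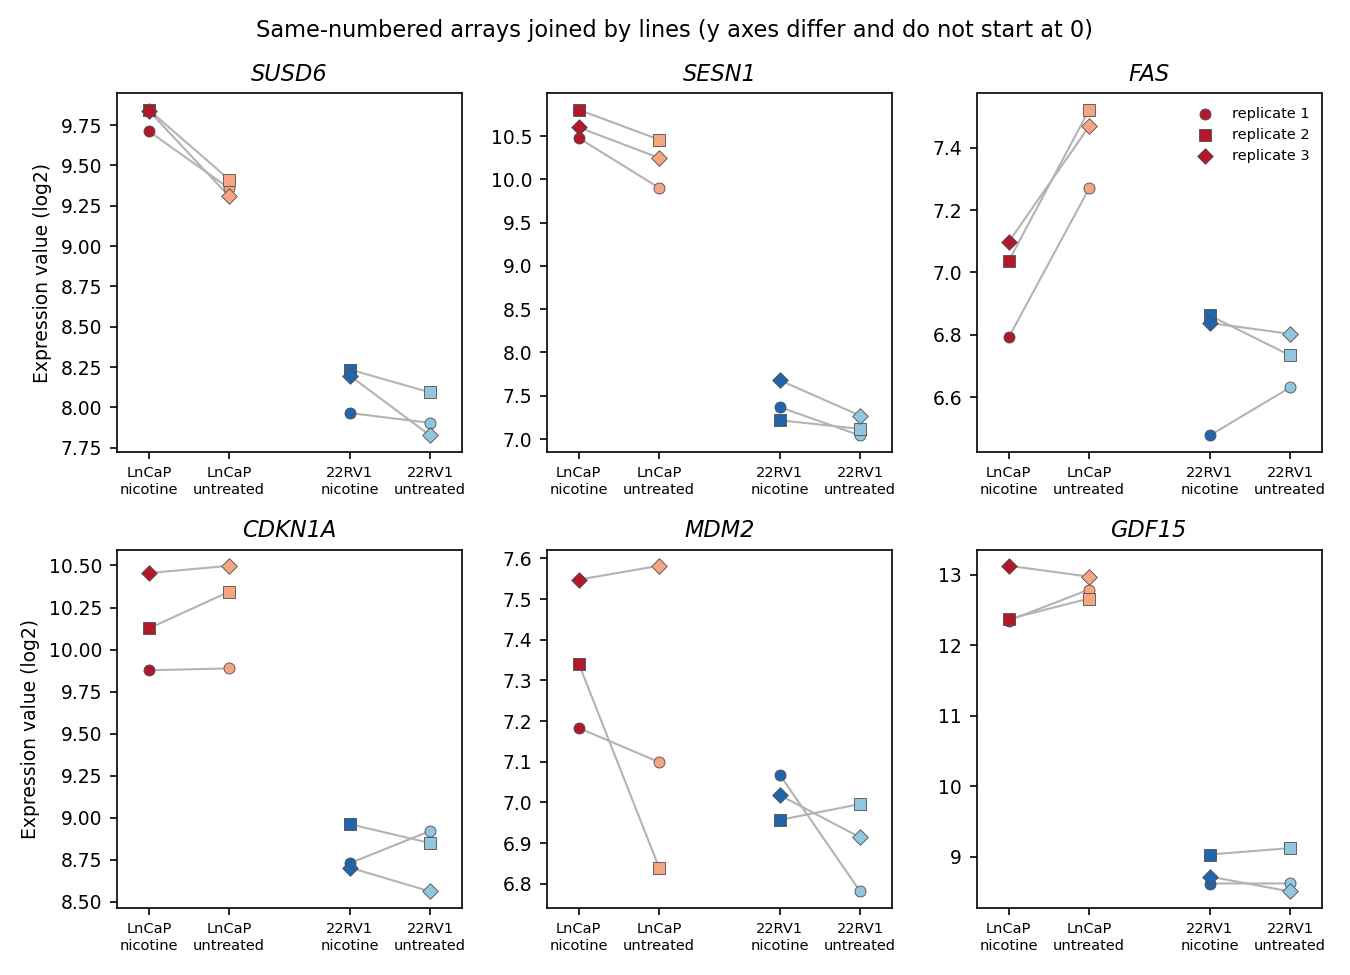
Log2 values (y axis, with a range of its own in each panel) of SUSD6, SESN1, FAS, CDKN1A, MDM2 and GDF15, with nicotine left of untreated in each line and same-numbered arrays joined by grey lines (circle 1, square 2, diamond 3). In LnCaP the treated arrays of SUSD6 and SESN1 lie above the untreated ones and those of FAS below, whereas the CDKN1A, MDM2 and GDF15 arrays overlap.

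Averaged over both lines, 0 targets passed, against 0.376% of all genes (limma), and 3 targets (SUSD6, SESN1 and FAS) had an unadjusted p under 0.05, against 11.6% of all genes. With the pairs as a block, SESN1 (0.35, limma adjusted p = 0.0216) and SUSD6 (0.32, limma adjusted p = 0.0264) rose, against 3.31% of all genes called and 1.28% called higher. EPHA2, the fourth by p, read 5.98, 5.96 and 5.998 in nicotine-treated LnCaP, against 5.69, 5.72 and 5.85 in untreated LnCaP. Its average over both lines was 0.23 and did not pass (limma adjusted p = 0.0682 with the block). Neither call held with 1 replicate number left out.

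The nicotine effect in LnCaP minus that in 22RV1 passed for 0 targets and 0% of all genes (limma), or 0 targets and 0.159% of all genes with the pairs as a block. FAS had a difference of effects of -0.45 (95% interval -0.82 to -0.07, limma adjusted p = 0.742), PLK3 of -0.33, AEN of -0.26 and SUSD6 of 0.25. AEN read 8.11, 8.03 and 8.13 in nicotine-treated LnCaP, against 8.19, 8.27 and 8.51 in untreated LnCaP, without overlap. In 22RV1 its groups overlapped, with 7.90, 7.97 and 8.01 in nicotine-treated 22RV1, against 7.87, 7.90 and 8.03 in untreated 22RV1. PLK3 read 6.69, 6.95 and 6.71 in nicotine-treated 22RV1, against 6.77, 6.80 and 6.60 in untreated 22RV1. FAS and PLK3 had an unadjusted p under 0.05, as did 6.26% of all genes. For no target, then, was an effect of nicotine that differs between the lines shown in these arrays.

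Genes upstream of or beside p53 were read from a list of 25 regulators, of which 21 were measured and the others are not analysed here. In untreated LnCaP against untreated 22RV1, 4 were higher and 8 lower, against 25.4% and 22.4% of all genes. PPP1R13L, which encodes iASPP, an inhibitor of p53, read 5.66, 6.15 and 6.02 in untreated LnCaP, against 8.40, 8.35 and 8.37 in untreated 22RV1, and was lower by 2.43 on the log2 scale (difference -2.43 ± 0.11, limma adjusted p = 4.80e-09). MDM4, the partner of MDM2 that holds p53 inactive, differed by -1.18, and CDKN2A, which encodes p16 and the MDM2 inhibitor ARF, by -0.94, both lower in LnCaP. The checkpoint kinase genes CHEK1 (-0.68) and CHEK2 (-0.42), EP300 (-0.61), SIRT1 (-0.32) and RPL11 (-0.19) were also lower in LnCaP. The 4 that were higher in LnCaP were ATR (0.49), a kinase of the DNA damage response, RCHY1 (0.42), a ubiquitin ligase of p53, BANP (0.37) and USP7 (0.29), a deubiquitinase of p53 and MDM2. Genes whose products restrain p53 thus had differences on both sides at the RNA level, and no protein was measured.

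After nicotine in LnCaP, 1 of the 21 regulators fell, the checkpoint kinase gene CHEK2. It read 7.79, 7.68 and 7.76 in nicotine-treated LnCaP, against 8.58, 8.32 and 8.36 in untreated LnCaP, a difference of -0.68 ± 0.14 (limma adjusted p = 0.0477), and 0.585% of all genes fell. The call was lost without untreated LnCaP replicate 3 or nicotine-treated LnCaP replicate 2, where 0 genes were called, and in a fit of only these groups, where no gene was called lower. Without untreated LnCaP replicate 1 only 2 of all genes were called lower, and without nicotine-treated LnCaP replicate 1 only 25. Whether CHEK2 was among them is not given here. CHEK1 differed by -0.76 and did not pass, except with the pairs as a block (limma adjusted p = 0.0330). That call was lost with number 2 left out of the block fit, where no gene was called lower. MDM4 differed by 0.23 and did not pass. In 22RV1 no regulator passed.

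Of 26 further p53 targets outside the 33, 23 were measured, and 10 were higher and 5 lower in untreated LnCaP, against 25.4% and 22.4% of all genes, with a median difference of 0.08. SFN, which encodes the cell cycle inhibitor 14-3-3 sigma, read 7.79, 7.68 and 7.46 in untreated LnCaP, against 12.80, 12.84 and 13.33 in untreated 22RV1, a difference of -5.34 that runs against the sign of CDKN1A. TIGAR, a regulator of glycolysis, was higher in LnCaP by 3.03, and IGFBP3, which binds insulin-like growth factors, was lower (difference -1.87). After nicotine none of the 23 passed in either line.

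The 15 cell division genes known to be lowered through p21 and DREAM were all measured. This list was chosen with earlier results of these data known, so its counts are not an independent test. Of these, 4 fell after nicotine in LnCaP, where 0.585% of all genes fell, and 11 did not pass. These 4 calls were lost without untreated LnCaP replicate 3 or nicotine-treated LnCaP replicate 2, where 0 genes were called, and in a fit of only these groups. Without untreated LnCaP replicate 1, only 2 of all genes were called lower. BIRC5, which encodes survivin, read 9.74, 9.54 and 9.60 in nicotine-treated LnCaP, against 10.28, 10.33 and 10.49 in untreated LnCaP, a difference of -0.74 (limma adjusted p = 0.0233). CKS1B differed by -0.69, KIF23 by -0.65 and BUB1B by -0.63, each with a limma adjusted p of 0.0192. All 15 differences were negative, with a median of -0.62 against 0.00 over all genes, and 13 fell with the pairs as a block, CHEK1 of the regulator list among them, against 3.28% of all genes. With number 2 left out of the block fit, none of the 13 was called. CDKN1A, measured on the same arrays, did not pass and had a difference of -0.09.

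In 22RV1, the 15 differences were also all negative, with a median of -0.29, and none passed. The limit from the choice of the list holds for these counts too. Averaged over both lines the same 4 genes fell, by 0.52 for BIRC5, 0.44 for KIF23, 0.40 for BUB1B and 0.39 for CKS1B on the log2 scale, against 0.376% of all genes called. These calls were all lost without untreated 22RV1 replicate 3, nicotine-treated 22RV1 replicate 1 or nicotine-treated LnCaP replicate 2, where 0 genes were called. Without untreated 22RV1 replicate 1 or nicotine-treated 22RV1 replicate 3, only 2 of all genes were called lower, and without the arrays numbered 3 only 3. Between the untreated lines 7 of the 15 were lower in LnCaP, against 22.4% of all genes, the largest differences being those of CKS1B (-1.41), KIF23 (-1.02) and ECT2 (-0.83). Between the nicotine-treated lines 13 were lower, against 23.7% of all genes. Whether these genes' lower level and the level of CDKN1A are linked was not tested.

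**Figure D5:**
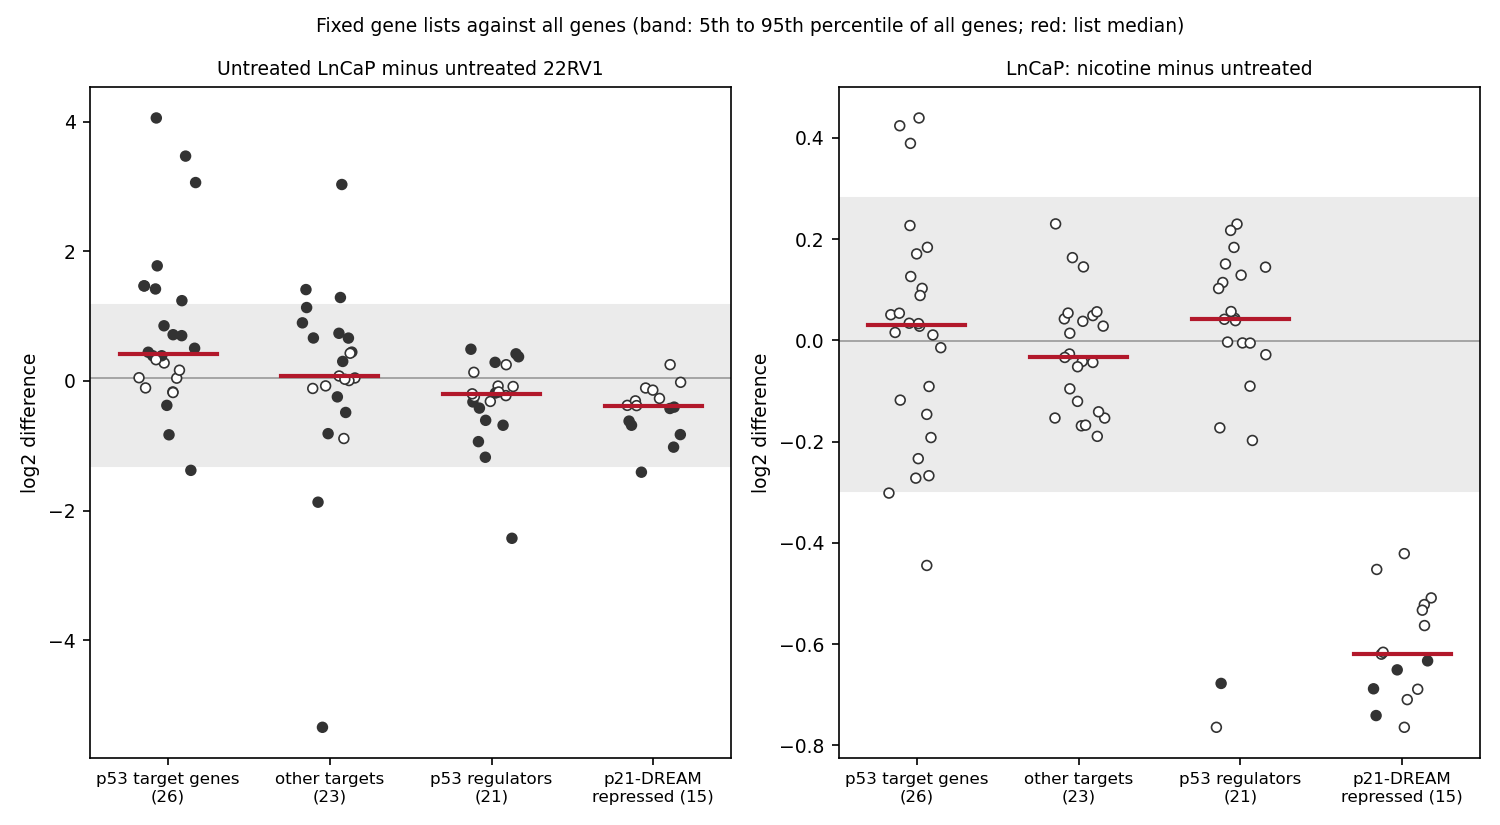
Log2 differences (y axis) of the genes of each list (points, filled where the adjusted p was under 0.05 without a block) for untreated LnCaP minus untreated 22RV1 (left) and nicotine minus untreated in LnCaP (right), with list medians in red and the 5th to 95th percentile of all genes as a grey band. The p53 targets spread upward between the lines (median 0.42) but lie around 0 after nicotine (median 0.03), where the 15 p21-DREAM genes all lie below 0. The lists were chosen with earlier results of these data known.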

How the data were processed

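Total RNA was taken with TRIzol and biotin-labelled for Affymetrix arrays, according to the labels' protocols. The authors deposited log2 expression values for 22277 probe sets on 12 arrays. How they were normalized, and with which software, is not given in the sources used here. Values entered as deposited. Gene symbols came from the platform annotation (19070 with 1 symbol, 1043 with several, 2164 unlisted), and the brightest of a gene's probe sets was kept, which left 11963 genes. The 26 measured targets had 40 probe sets, and 8 targets had several.

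One limma model (version 3.58.1, R 4.3.3) of the 4 group means was fitted to the 12 arrays (lmFit, eBayes, two-sided, Benjamini-Hochberg over all genes within a contrast, threshold 0.05). The fit was tested on simulated data. Precision is limited by the number of arrays: the median standard error of a difference within a line was 0.109. The labels number the replicates alike in all groups. Deviations of same-numbered treated and untreated arrays correlated over genes at 0.371, 0.225 and 0.599 in LnCaP and 0.465, 0.454 and 0.640 in 22RV1. Treated number 1 correlated with untreated number 2 at 0.27 in both lines, above the 0.225 of the LnCaP pair numbered 2. Treated number 2 correlated with untreated number 1 at 0.046 in LnCaP and 0.204 in 22RV1. Within a line, number 3 correlated negatively with the other numbers. The data thus set number 3 apart more clearly than they pair numbers 1 and 2. The numbers were taken to pair these arrays, and a fit with the pair as a block is given where it changes a call.

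Values per array are given for up to 8 of the highest and 8 of the lowest called targets between the untreated lines (only 3 were called lower), for targets called after nicotine, for the 4 smallest p in each nicotine contrast, and always for CDKN1A, MDM2, GDF15, PMAIP1 and FAS. BBC3 was in the rule and is not analysed here. The targets and the lists of regulators, further targets, p21-DREAM genes and cell type markers were chosen with earlier results of these data known. Alternatives were the block, other probe set choices, filters, scalings, priors, array weights and arrays left out.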

Additional observations from a re-analysis of the deposited data

How the results depend on the processing

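Among 1180 values of named targets under the alternatives tried, 1161 stayed on their side of the threshold with the sign of any call kept, 3 lost it (PPM1D, without 1 array), 16 crossed to a call (MDM2, PMAIP1, FAS, SUSD6 and SESN1) and 0 called values changed sign, whereas 29 values that were not called did. In a comparison of 2 groups, leaving out an array of another group keeps the difference and changes the spread alone. The 1180 values are therefore not 1180 separate checks. Counts between the lines stayed within 1.5 times: 15 to 20 targets nicotine-treated and 17 to 18 untreated with 1 array left out. Same-numbered arrays of different lines correlated at 0.12, 0.067 and 0.164 with nicotine and at 0.082, 0.15 and 0.253 untreated, so their numbers are not taken as pairs. With a replicate block, 20 nicotine-treated and 19 untreated targets were called between the lines, against 51.5% and 49.9% of all genes. Called only with the block were FAS (adjusted p = 0.0207, limma), TRIAP1 (0.0184) and PLXNB2 (0.0348) nicotine-treated, and DDB2 (0.0171) untreated.

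In LnCaP, nicotine called 83 genes, against 645 with the replicate block (3 targets), 1 with only the groups compared, 175 with array weights, 132 with a trend and robust prior, 143 without the arrays numbered 3 and 0 to 113 with 1 array left out. The count was 0 without untreated replicate 3 or treated replicate 2. With the block and without number 1, 2 or 3, alternatives chosen after seeing the data, it was 54, 1 and 179. In 22RV1 the count was 0, or 1 with array weights, 0 to 1 with 1 array left out and 2 with the block without number 2. For the average it was 45, or 396 with the block (2 targets), 112 with array weights, 7 without the arrays numbered 3, 0 to 36 with 1 array left out, and 0 with the block without any of the 3 numbers. For the difference of effects it was 0, or 19 with the block and 0 to 1 with 1 array left out. The causes were not tested.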
